A study of Mus musculus with 6 samples.

Results

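Hepcidin and the genes of systemic iron regulation were followed in mouse livers that overexpressed TFEB, a transcription factor known as an activator of lysosomal and autophagy genes. The list holds 10 genes: Hamp, Tfrc, Tfr2, Trf, Hfe, Hfe2 (now Hjv), Slc40a1, Cp, Fth1 and Bmp6. Every probe set (a group of array probes for a transcript) that the platform annotation pairs with exactly 1 gene of the list was taken, which gave 24 probe sets for 8 genes out of 22690 probe sets on the array. The only probe set for Trf, the gene of transferrin, is annotated to 2 genes together, so Trf has no value here, and Hfe2 was not analysed here. The genes were picked by their role in iron regulation and selected with the differences between transgenic and wild-type livers already in view. Those differences are therefore a description for these genes, and no p is given for them.

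The study compared livers of 3 transgenic mice with 3 wild-type liver samples at postnatal day 9. Sample titles call both groups biological replicates, but that the wild-type samples came from separate animals is not stated outright. The errors measure the spread between these arrays. Transgenic mice carried a conditional Tcfeb allele (the older name of Tfeb) together with Cre recombinase from the albumin promoter, which is active in hepatocytes. Whether the wild-type animals carried Cre or the unrecombined allele is not given in the sources used here, nor are the strain and the sex. Values are log2 expression as deposited, so a difference of 1 is a 2-fold change, and every difference is the transgenic mean less the wild-type mean, followed by its standard error (SE) from a limma fit over 22639 probe sets.

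Hepcidin, the peptide encoded by Hamp, is the hormone through which the liver controls iron entry into plasma. It binds ferroportin, the iron exporter encoded by Slc40a1, and causes its degradation, so that iron is kept inside enterocytes, macrophages and hepatocytes. Hepatocytes raise Hamp transcription when BMP6, secreted by sinusoidal endothelial cells in response to iron, acts through BMP receptors and SMAD proteins with hemojuvelin (Hjv) as a coreceptor, and HFE and transferrin receptor 2 report the iron saturation of transferrin. Inflammation raises Hamp through interleukin 6 and STAT3, whereas demand from red cell precursors lowers it.

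Mice have a second hepcidin gene, Hamp2, close by on the same chromosome. The 250 bases before the start of each gene are shown because the array reads both genes. They come from RefSeq, build GRCm38.p6, minus strand, at chr7:30944030-30944279 for Hamp and chr7:30924182-30924431 for Hamp2, and are written 5′ to 3′. Capitals mark GGCGCC, the core of the BMP response element of the hepcidin promoter, and TTCNNNGAA, a STAT site, where N is any base.

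Hamp: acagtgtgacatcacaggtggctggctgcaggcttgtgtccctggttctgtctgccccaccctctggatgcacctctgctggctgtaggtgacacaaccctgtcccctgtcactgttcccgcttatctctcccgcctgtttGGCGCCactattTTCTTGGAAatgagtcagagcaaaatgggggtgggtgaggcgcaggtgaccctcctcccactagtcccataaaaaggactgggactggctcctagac
Hamp2: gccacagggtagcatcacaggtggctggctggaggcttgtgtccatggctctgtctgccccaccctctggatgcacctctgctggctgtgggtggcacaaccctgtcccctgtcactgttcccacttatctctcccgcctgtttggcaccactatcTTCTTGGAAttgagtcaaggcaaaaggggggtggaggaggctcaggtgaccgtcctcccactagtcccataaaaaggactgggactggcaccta

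With the windows shifted by 3 bases against each other and no gaps, 227 of 247 letters were the same (91.9%). Of the 20 letters that differed, that inside the GGCGCC of Hamp is G145A. Positions are counted from 1 at the 5′ end of the Hamp window, with the Hamp letter first. GGCGCC begins 109 bases before the start of Hamp and does not occur in these letters of Hamp2, and the STAT site begins 97 bases before the start of Hamp and 94 before that of Hamp2. Over all 32851 RefSeq promoter windows of this length, searched on both strands, 9.59% hold GGCGCC and 7.02% hold TTCNNNGAA. The core of the TFEB motif, CACGTG, is in 6.02% of them and in neither hepcidin window. Among the 13 windows for Hamp2 and for the 7 listed genes that have one, CACGTG occurs in 1, that of Bmp6, 127 bases before the start. A match or its absence describes letters only, and binding was not measured. Whether any of these letters bears on the Hamp or Hamp2 readings was not tested.

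Hamp read far higher in every transgenic liver than in any wild-type liver. Its first probe set, 1419196_at, read 4.72, 3.59 and 4.49 in wild-type replicates 1 to 3 and 8.12, 9.58 and 9.52 in transgenic replicates 1 to 3. The lowest transgenic array thus stood well above the highest wild-type array, and the group means were 4.27 ± 0.60 and 9.07 ± 0.82 (SD, n = 3). The difference was 4.81 (SE 0.42), a 28-fold higher reading.

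The other Hamp probe set, 1419197_x_at, whose suffix marks probes that may bind related transcripts, gave the same picture with a smaller difference. It read 5.06, 5.20 and 4.79 in wild type and 7.74, 9.23 and 8.70 in the transgenic arrays, a difference of 3.54 (SE 0.33) or 11.6-fold. On both probe sets transgenic replicate 1 was the lowest transgenic array and replicate 2 the highest. Wild-type readings were dim, brighter than 16.9% and 26.6% of all probe sets, and the deposited table has no detection calls, so these data do not show whether hepcidin RNA was detected in wild-type liver and the folds are those of the deposited scale.

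Sex-linked transcripts, read as a check of each animal, set transgenic replicate 1 apart. Xist, transcribed from the inactive X chromosome, read 5.58 there and 13.03 to 13.19 on the other 5 arrays, and Eif2s3y, on the Y chromosome, was at 9.32 there and at 3.06 to 3.43 on the others. Without that array the Hamp differences were 5.28 and 3.95, so they were as large without the only animal of male pattern, and the listed probe sets past the threshold were 6 higher and 8 lower. After scaling to the bacterial controls described further on, the differences with all arrays were 5.18 and 3.91. The part of sex in the spread among transgenic livers was not tested.

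Hamp2 did not separate the groups. Its brighter probe set, 1436643_x_at, also bears the suffix for probes that may bind related transcripts, and a part of Hamp RNA in its signal was not tested. It read 6.60, 6.72 and 6.59 in wild type and 6.48, 7.33 and 6.93 in transgenic liver. Transgenic replicate 1 lay below all wild-type arrays and the other 2 above them. The difference was 0.28 (SE 0.19, adjusted p = 0.28), and adjusted p ran from 0.00443, with arrays scaled to bacterial control RNAs, to 0.737 over the alternatives. The other probe set, 1456289_at, differed by -0.15 (SE 0.10, adjusted p = 0.294, and 0.129 to 0.728 over the alternatives), and its groups overlapped too. Adjusted p here and below is from limma with Benjamini-Hochberg adjustment over all probe sets fitted. A test of the difference between the Hamp and Hamp2 changes was not made.

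**Figure D1:**
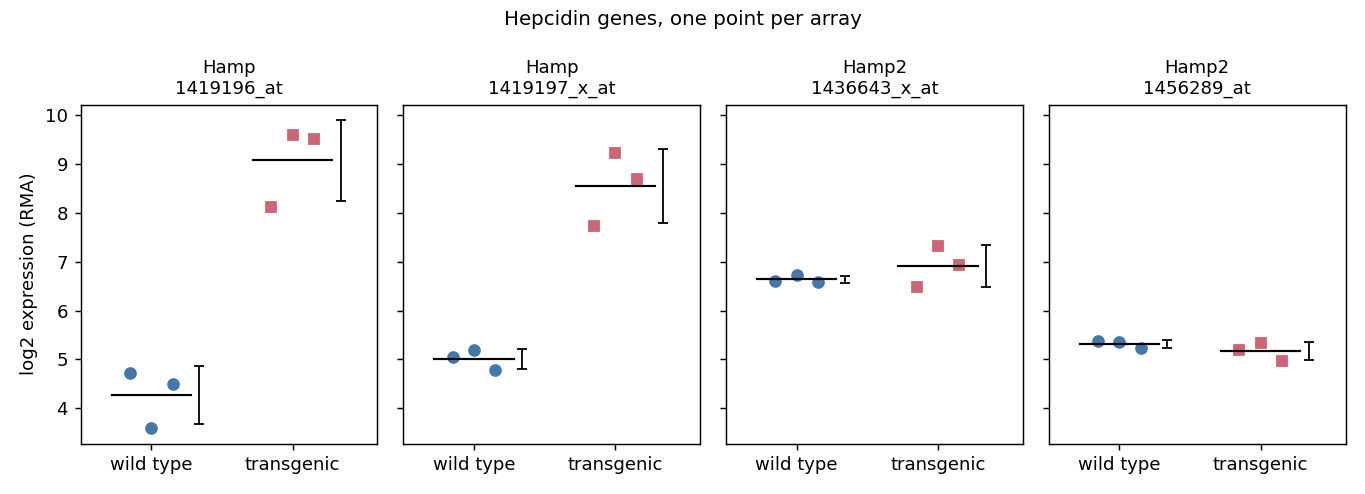
Log2 expression (vertical axis) of both Hamp and both Hamp2 probe sets, with 1 point for each of 3 wild-type (circles) and 3 transgenic arrays (squares, replicates 1 to 3 from left to right); horizontal lines are means and bars are SD. The transgenic arrays read 8.12 to 9.58 on Hamp 1419196_at, all above the wild-type arrays at 3.59 to 4.72, while the groups overlap on both Hamp2 probe sets.

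Counted over the whole list, an adjusted p under 0.05 was reached by 15 of the 24 probe sets, of which 7 read higher and 8 read lower in the transgenic arrays, and 15 also had groups with no overlap. Over all probe sets 35.4% passed (18.1% higher and 17.3% lower) and 50.5% had groups that did not overlap. The median difference was -0.02 over the 24 probe sets and -0.04 over all. Because the genes were proposed with this comparison in view, nothing is read from these counts. Bacterial RNAs added to every sample as hybridisation controls read lower on each transgenic array, with a median difference of -0.37 over 14 probe sets. With arrays scaled to those controls the median over all probe sets moved from -0.04 to 0.34, the share of calls that were higher from 51.0% to 93.2%, and the listed probe sets past the threshold were 14 higher and 6 lower. That scaling raises every difference by 0.37, so directions here are relative to the deposited scale, and a negative difference smaller than 0.37 in size becomes positive on the other scale. Values on that scale are given beside the listed genes.

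**Figure D2:**
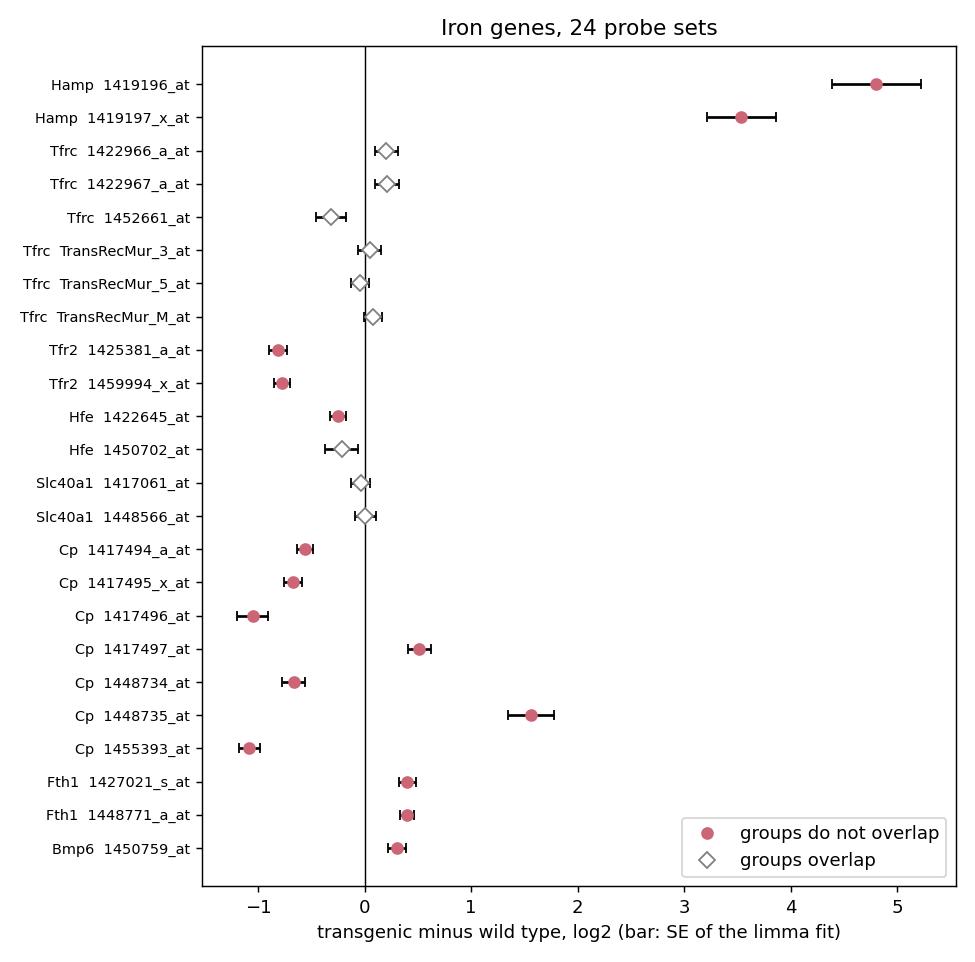
Difference between transgenic and wild-type means in log2 units (horizontal axis) for each of the 24 probe sets, with bars for the SE of the limma fit; filled circles mark probe sets whose groups did not overlap and open diamonds those that did. Hamp stands at 4.81 and 3.54, Tfr2 lies at -0.82 and -0.78, Slc40a1 lies near 0, and the 7 Cp probe sets fall on both sides.

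Transferrin receptor 2 (Tfr2), the hepatocyte sensor of iron-loaded transferrin, read lower in all transgenic livers. Probe set 1425381_a_at read 11.81, 11.56 and 11.60 in wild type and 10.78, 10.84 and 10.90 in the transgenic arrays, a difference of -0.82 (SE 0.09) that puts the transgenic level at 56.8% of wild type. Probe set 1459994_x_at read 12.28, 12.20 and 12.29 against 11.46, 11.40 and 11.57, a difference of -0.78 (SE 0.08). The 2 probe sets thus gave nearly the same size, the groups were apart on each, and after scaling to the bacterial controls the differences were smaller but still negative, at -0.44 and -0.41.

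Hfe encodes the MHC class I-like protein mutated in hereditary haemochromatosis, which takes part with transferrin receptor 2 in the control of hepcidin. Its probe set 1422645_at read 9.73, 9.87 and 9.88 in wild type and 9.59, 9.50 and 9.63 in transgenic liver, so the groups were apart by a small gap. The difference of -0.25 (SE 0.08) passed the threshold with all arrays, turned to 0.12 with arrays scaled to the bacterial controls, and no longer passed when wild-type replicate 2 (-0.23) or 3 (-0.22) was left out, or any 1 of the transgenic replicates (-0.26, -0.22 and -0.28 for replicates 1 to 3). The second probe set, 1450702_at, read 6.84 to 7.39 in wild type and 6.79 to 7.15 in transgenic liver, with overlapping groups and a difference of -0.22 (SE 0.16), or 0.15 after that scaling.

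Bmp6, the ligand through which liver endothelial cells report iron stores, was represented by 1 dim probe set. It read 5.0, 4.75 and 4.88 in wild type and 5.20, 5.23 and 5.09 in transgenic liver. The groups were apart by less than the spread within the wild-type group, and the difference was 0.30 (SE 0.09), or 0.67 after scaling to the bacterial controls. The threshold was missed when wild-type replicate 2 (0.24) or 3 (0.30) was left out, and likewise for transgenic replicate 1 (0.28) or 2 (0.27).

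Markers of sinusoidal endothelial cells, the source of BMP6, moved in both directions. Of 10 measured, Lyve1 was higher by 0.40 and 5 were lower, among them Stab2 (-0.34) and Kdr (-0.38), and the median was -0.24. The summed level of the list ran from 12.68 to 12.94 in wild type and from 12.69 to 12.86 in transgenic liver, so the groups overlapped. Scaled to the bacterial controls, 4 of the 10 were higher, the median was 0.13, Stab2 was at 0.03, and neither Stab2 nor Kdr was called lower. In RNA from whole liver, fewer cells of a type and less RNA per cell cannot be told apart. The part of endothelial RNA in the Bmp6 reading was not tested.

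Ferroportin, the only known iron exporter of cells and the protein that hepcidin removes, showed no separation of its transcript Slc40a1. Probe set 1417061_at read 12.32, 12.29 and 12.39 in wild type and 12.20, 12.22 and 12.45 in transgenic liver. Transgenic replicate 3 was the highest of all 6 arrays and the other 2 transgenic arrays were the lowest, with a difference of -0.04 (SE 0.09). Probe set 1448566_at read 10.44, 10.49 and 10.55 against 10.35, 10.45 and 10.70, with the same order of the transgenic arrays and a difference of 0.0046 (SE 0.10). On the scale of those control RNAs the values were 0.33 and 0.38, close to the median of all probe sets on that scale.

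Kupffer cells, the liver macrophages that recycle iron and carry much of its ferroportin, gave marker readings that were lower or unseparated in transgenic liver. Of 10 markers measured, 5 fell, among them Adgre1 (-0.56, with overlapping groups), Marco (-0.56) and Fcna (-0.63). The other 5 did not pass, among them Clec4f (-0.33), Vsig4 (-0.34) and Cd5l (0.01), and the median was -0.39. Their summed level was 14.18 to 14.52 in wild type and 13.87 to 14.22 in transgenic liver, so the groups overlapped. On the scale of the bacterial controls their median was -0.02, with 1 of them higher and 0 lower. What part these cells had in the Slc40a1 readings was not tested.

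Transferrin receptor 1, the product of Tfrc, takes up iron-loaded transferrin and is most abundant on red cell precursors. The brightest of its 6 probe sets, 1452661_at, read 12.10, 12.29 and 12.38 in wild type and 12.24, 11.83 and 11.74 in transgenic liver. Transgenic replicate 1 lay within the wild-type range and the other 2 below it, and the difference was -0.32 (SE 0.14), or 0.06 after scaling to the bacterial controls. Probe sets 1422966_a_at and 1422967_a_at differed by 0.20 (SE 0.11) and 0.21 (SE 0.12), with overlapping groups, and by 0.57 and 0.58 after that scaling.

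The array also carries 3 probe sets for the 5′ end, the middle and the 3′ end of the Tfrc transcript as controls of RNA quality. They had means of 3.35, 3.57 and 5.39 in wild type and 3.31, 3.65 and 5.43 in transgenic liver. The differences were -0.04 (SE 0.08), 0.08 (SE 0.08) and 0.04 (SE 0.11), and the groups overlapped on each. On the bacterial-control scale they were 0.33, 0.45 and 0.42. The 6 probe sets thus gave 4 small positive and 2 negative differences as deposited, and no single direction is read for Tfrc.

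Markers of red cell precursors, which fetal and newborn mouse liver still holds, were mostly higher in transgenic liver. Of 12 measured, 8 rose, among them Slc4a1 (1.00), Hemgn (1.11), Rhag (1.02) and Tmod1 (1.11), Alas2 and Sptb did not pass at -0.28 and -0.19, and the median was 0.81. Their summed level was 11.01 to 11.18 in wild type and 11.66 to 11.96 in transgenic liver, highest in transgenic replicate 1. What these cells contributed to the Tfrc readings was not tested.

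Ceruloplasmin (Cp), the copper-carrying ferroxidase that hepatocytes secrete and that helps load exported iron onto transferrin, was measured by 7 probe sets that did not move together. The brightest, 1417494_a_at, read 14.02, 14.14 and 14.10 in wild type and 13.60, 13.46 and 13.51 in transgenic liver, with a difference of -0.56 (SE 0.07). Probe set 1455393_at read 12.66, 12.87 and 12.70 against 11.81, 11.51 and 11.65, a difference of -1.09 (SE 0.10) that puts the transgenic level at 47.1% of wild type. The 3 others on the lower side were 1417495_x_at (-0.68), 1417496_at (-1.05) and 1448734_at (-0.67).

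The remaining 2 Cp probe sets went the other way. Probe set 1448735_at read 5.53, 6.31 and 6.41 in wild type and 7.71, 7.46 and 7.76 in transgenic liver, with a difference of 1.56 (SE 0.22) or 2.95-fold. Probe set 1417497_at read 5.57, 5.95 and 5.85 against 6.25, 6.29 and 6.37, a difference of 0.51 (SE 0.11). All 7 had groups apart from each other, the 5 with wild-type means of 10.66 or more were lower in transgenic liver, and the 2 with means of 6.08 or less were higher. The signs were the same with arrays scaled to the bacterial controls, at -0.71 to -0.19 for the 5 and 0.88 and 1.93 for the 2. Averaged over all its probe sets Cp differed by -0.28. Which part of the transcript each probe set covers is not given in the sources used here, so the split is reported as measured.

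**Figure D3:**
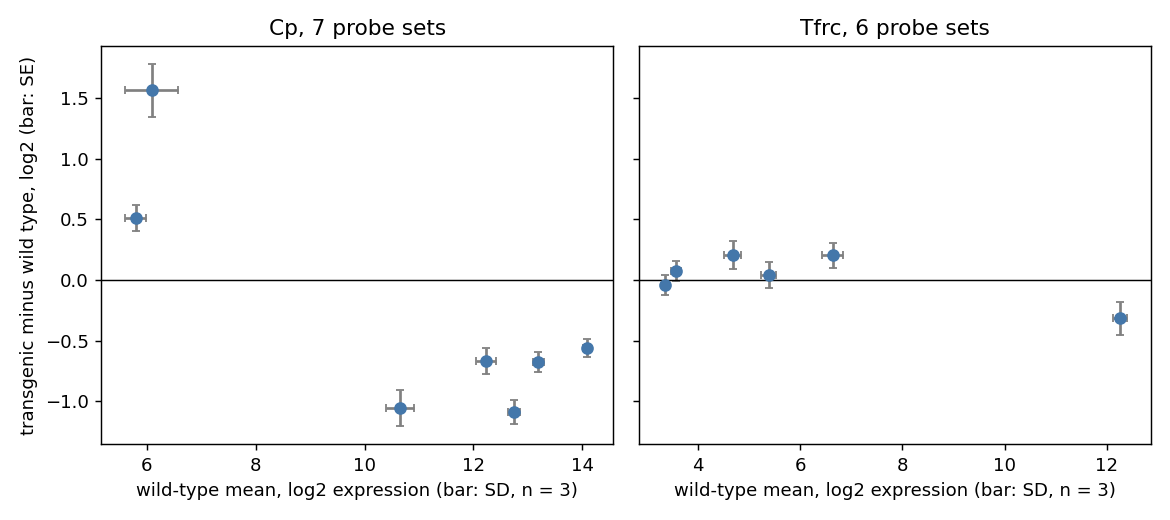
Wild-type mean log2 expression of each probe set (horizontal axis, bars SD, n = 3) against the transgenic minus wild-type difference in log2 units (vertical axis, bars SE) for the 7 Cp and the 6 Tfrc probe sets. The 5 bright Cp probe sets lie between -1.09 and -0.56 and the 2 dim ones at 0.51 and 1.56, while the Tfrc probe sets run from -0.32 to 0.21.

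Ferritin heavy chain, the ferroxidase subunit of the iron store and the product of Fth1, read higher in every transgenic liver on both probe sets. Probe set 1448771_a_at read 12.99, 13.05 and 13.01 in wild type and 13.38, 13.45 and 13.41 in transgenic liver, with a difference of 0.40 (SE 0.07) or 1.31-fold. Probe set 1427021_s_at read 13.43, 13.64 and 13.61 against 14.01, 13.97 and 13.90, a difference of 0.40 (SE 0.08). After scaling to the bacterial controls both were 0.77. Ferritin is mainly controlled through translation of its mRNA by iron regulatory proteins, a level that these arrays do not measure.

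Markers of hepatocytes, the cells in which the albumin promoter drives Cre and which make hepcidin, transferrin receptor 2 and ceruloplasmin, were lower or unseparated. Of 5 measured, F2 fell by 0.54 and Apoa1 fell by 0.19. Alb read 14.87 in each group, but its value was the highest on every array. At the top of the normalized scale it cannot show whether hepatocyte RNA changed. The summed level was 16.82 to 16.88 in wild type and 16.71 to 16.72 in transgenic liver. On the scale of those control RNAs 2 of the 5 were higher and Apoa1 was at 0.18. Of 5 stellate cell markers 3 fell, while Des (0.05) and Pdgfrb (-0.16) did not pass. Their summed level was 13.15 to 13.20 in wild type against 12.48 to 12.58 in transgenic liver. The brightest of them, Reln (-1.06) and Dcn (-0.32), weigh most in that sum. After scaling to the bacterial controls 2 were lower and 1 was higher, with a median of 0.05. Tfeb itself had means of 6.71 ± 0.18 and 6.50 ± 0.13 for wild-type and transgenic arrays on its probe set (SD, n = 3), which cannot check the labels if it lies outside the transgene.

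The other genes of the iron pathway were counted on 7 further lists, with each gene represented by its brightest probe set on average. Over all 12393 genes read this way 38.6% passed (19.1% higher and 19.5% lower), with a median difference of -0.04. These lists too were set with earlier results of these data known, and genes were named for a large change or after their values were seen. Their adjusted p is given to show where each stands in the fit, and is not an independent test.

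In the BMP and SMAD pathway, which carries the iron signal to the hepcidin promoter, 6 of 21 genes were called higher, 3 lower and 12 neither, and the median was 0.05. Id2, which encodes an inhibitor of basic helix-loop-helix factors, rose from 11.28 ± 0.23 to 12.06 ± 0.12 (SD, n = 3), a difference of 0.78 (SE 0.12, adjusted p = 0.00216). Bmp2, a second endothelial BMP that acts on hepcidin, rose by 0.62 (SE 0.15, adjusted p = 0.0141), although without wild-type replicate 2 it was at 0.56 and adjusted p = 0.051, in a range of 0.000132 to 0.051 over the alternatives. The BMP receptors Acvr1 and Acvr2a fell by 0.47 (adjusted p = 0.00201) and 0.41 (adjusted p = 0.00397), with 1 of 3 and 1 of 2 probe sets past the threshold.

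Several genes of that list are standard readouts of BMP signalling in liver and are named here after their values were seen. Id1 rose by 0.49 (SE 0.10, adjusted p = 0.00807), and its arrays read 8.97, 9.11 and 8.92 in wild type and 9.30, 9.64 and 9.53 in transgenic liver. Smad7 (-0.15), Smad6 (-0.15), Id3 (0.05) and Atoh8 (0.05) did not pass. With arrays scaled to the bacterial controls, 12 genes of the list were higher, and the falls of Acvr1 and Acvr2a came to -0.10 and -0.03 and did not pass.

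Of 9 genes of the interleukin 6 and STAT3 branch, 4 rose, 2 fell and 3 did not pass, with a median of -0.01. Scaled to the bacterial controls, 5 were higher and 2 lower, with a median of 0.36. Inhbb, which encodes the subunit of activin B, a hepcidin-inducing ligand of inflamed liver, fell from 10.43 ± 0.15 to 8.75 ± 0.25 (SD, n = 3), to a 3.19-fold lower reading (adjusted p = 7.42e-05). The interleukin 6 receptor gene Il6ra fell by 1.12 (SE 0.12, adjusted p = 0.000328), whereas Stat3 stayed at 10.35 and 10.34. Socs3, a STAT3 target and feedback inhibitor, rose by 0.66 (SE 0.19, adjusted p = 0.0264) on its brightest probe set. All 3 of its probe sets passed, at 0.57 to 0.87. Jak1 rose by 0.32 (SE 0.08, adjusted p = 0.0161) on its brightest probe set, and 2 of 3 passed, with a range of 0.17 to 0.32 over the 3.

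How many genes of this branch passed depended on single arrays, while Socs3 ran from 0.53 to 0.87 and Jak1 from 0.24 to 0.37 over the alternatives other than that scaling and averaging of probe sets. Without wild-type replicate 2 or transgenic replicate 2 the list had 2 higher, without transgenic replicate 3 it had 1, and without transgenic replicate 1 it had 0 by limma, with 3 at an unadjusted p under 0.05. The number lower was 4 without wild-type replicate 1. Socs3 did not pass when wild-type replicate 1 (0.58) or 2 (0.53) or transgenic replicate 1 (0.57) or 3 (0.64) was left out, and Jak1 without transgenic replicate 1 (0.29) or 2 (0.31).

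Suppressors of hepcidin were represented by 4 genes, of which 2 fell and the other 2, Twsg1 (0.08) and Hgf (0.08), did not pass. On the bacterial-control scale 2 were higher and 1 lower, and the median moved from -0.21 to 0.16. Egfr, the receptor through which epidermal growth factor lowers hepcidin, fell from 8.91 ± 0.19 to 7.66 ± 0.17 (SD, n = 3), a difference of -1.25 (SE 0.12, adjusted p = 2e-04) with 4 of 5 probe sets past the threshold. Fgl1, a liver-secreted antagonist of BMP signalling, fell by 0.50 (SE 0.10, adjusted p = 0.00651), and was at -0.13 after scaling to the bacterial controls. Erythroferrone (Erfe), Epo and Gdf15 were not analysed here.

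Among transcription factors that act on the hepcidin promoter, 2 of 4 fell and 2 did not pass, with a median of -0.28. Scaled to the bacterial controls, 1 was lower and the median was 0.09. Cebpa, a factor of hepatocyte maturity, fell from 9.81 ± 0.15 to 9.01 ± 0.13 (SD, n = 3; adjusted p = 0.000796). Hnf4a fell by 0.34 (SE 0.08, adjusted p = 0.0148), but its value was 0.037 with arrays scaled to the bacterial controls, with adjusted p from 0.00305 to 0.745 over the alternatives. Usf1 (-0.20) and Usf2 (-0.22) did not pass. Their groups were apart, as were those of 3483 genes on the lower side and 3178 on the higher side among all 12393. The Usf1 and Usf2 differences are smaller in size than the 0.37 that scaling to the bacterial controls adds, so they turn positive on that scale. Usf2 is the gene next to Hamp in the RefSeq annotation.

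Genes of cellular iron import and storage fell for 7 of 17 members and rose for 2, with 8 not passed and a median of -0.30. With arrays scaled to the bacterial controls the balance turned, with 5 higher, 4 lower and a median of 0.07. Ltf, lactoferrin, an iron-binding protein of neutrophil granules, fell by 2.64 (SE 0.36, adjusted p = 0.0011), and Steap4, a metalloreductase, fell by 0.93 (SE 0.14, adjusted p = 0.00162). Steap1, of the same protein family, rose from 5.87 ± 0.02 to 7.21 ± 0.10 (SD, n = 3, adjusted p = 1.48e-05) on its brighter probe set. Both of its probe sets passed, at 1.34 and 1.57. Ncoa4, the receptor that delivers ferritin to lysosomes for breakdown, rose by 0.45 (SE 0.08, adjusted p = 0.00471) on 1 of 2 probe sets, the other being at 0.05.

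The remaining members past the threshold were all lower and are named after their values were seen. They were the zinc and iron transporters Slc39a14 (-0.60) and Slc39a8 (-0.72), the endosomal ferrireductase Steap3 (-0.74), the ferroxidase Heph (-0.59) and the ferric reductase Cybrd1 (-0.56). The iron regulatory protein genes Aco1 (-0.13) and Ireb2 (0.15) did not pass.

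Of 13 genes for clearance of haem and haemoglobin and for haem export, 7 fell, 1 rose and 5 did not pass, with a median of -0.36. After scaling to the bacterial controls 4 were higher and 4 lower, with a median of 0.0099. Lrp1, the receptor for haem bound to haemopexin, fell by 0.89 (SE 0.09, adjusted p = 0.000269). Blvrb, a biliverdin reductase, fell by 0.80 (SE 0.09, adjusted p = 0.000454), and the exporter gene Abcg2 rose by 0.58 (SE 0.07, adjusted p = 0.000725). Cd163, the macrophage receptor for haemoglobin bound to haptoglobin, fell by 1.24 (SE 0.31, adjusted p = 0.0167). Of the macrophage markers given above 5 of 10 fell, and the part of cell number was not tested. The Cd163 difference was -1.15 without wild-type replicate 2 and -1.14 without wild-type replicate 3, where it did not pass. Hmox1, which opens haem and responds to oxidative stress, was at 0.10 and did not pass.

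In mitochondrial iron handling and haem synthesis 3 of 17 genes were called higher, 4 lower and 10 neither, and the median was 0.02. On the bacterial-control scale 13 were higher and 2 lower, with a median of 0.39. Alad and Cpox, enzymes of haem synthesis, fell by 0.99 (SE 0.10, adjusted p = 0.000253) and 0.81 (SE 0.08, adjusted p = 0.000172). Slc25a37, mitoferrin 1, which imports iron into mitochondria of red cell precursors, rose by 0.64 (SE 0.08, adjusted p = 0.000864). Abcb10, its partner in the inner membrane, rose by 0.35 (SE 0.08, adjusted p = 0.0093) on its brightest probe set. Of its 3 probe sets 2 passed, at up to 0.44, and the third was at -0.22. Of the red cell precursor markers 8 of 12 were higher, at a median of 0.81 and a summed level of 11.01 to 11.18 in wild type against 11.66 to 11.96. Alad, Cpox and, on the same list, Slc25a38 (-0.45, adjusted p = 0.0023 by limma) went the other way from most of these markers. What part red cell precursors had in any of these readings was not tested. Alas1, the first enzyme of haem synthesis in liver, was at -0.04 and did not pass.

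**Figure D4:**
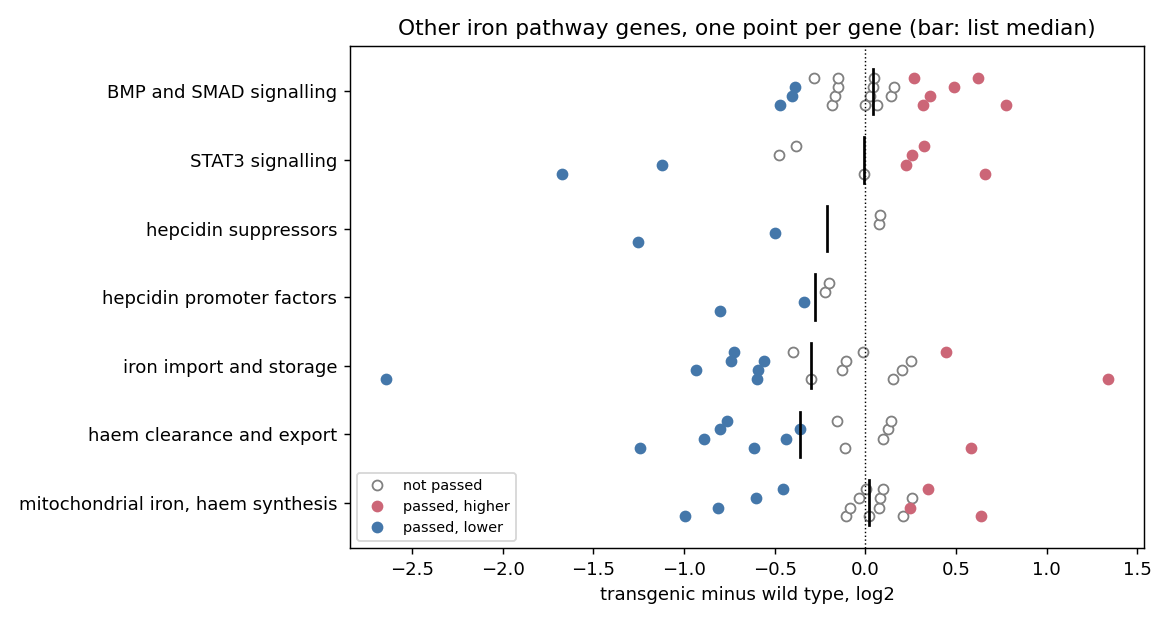
Transgenic minus wild-type difference in log2 units (horizontal axis) for each measured gene of the 7 further iron lists, read by its brightest probe set; filled points passed an adjusted p of 0.05, open points did not, and vertical bars are list medians. The lists of hepcidin suppressors, promoter factors, iron import and storage and haem clearance have medians from -0.36 to -0.21, and the other 3 lie between -0.01 and 0.05.

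The genes whose readings ran most like those of Hamp were sought among 218 genes whose SD over the arrays was at least that of Hamp divided by 2, by Pearson's r with probe set 1419197_x_at over the 6 arrays. They were Ldhb (r = 0.994), which encodes the heart-type subunit of lactate dehydrogenase, Nrk (r = 0.992), a kinase gene, and Scel (r = 0.992), which encodes a protein of the epithelial cornified envelope. All 3 were higher in transgenic liver, by 2.45, 3.93 and 2.05, and lowest in replicate 1 among the transgenic arrays. With 3 arrays in each group such an r mostly follows the gap between the groups and then the order of the arrays. The direction and the low replicate 1 thus follow from how these genes were sought, and the r is given as a description.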

How the data were processed

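RNA of 6 liver samples was measured on 1 Affymetrix GeneChip array each. The authors' log2 values, 1 for each probe set, came from affy and RMA per the submitters' processing notes, without versions, and further filtering is not given in the sources used here. No detection calls are included, and the number of arrays limits the precision. Names came from the platform annotation of probe sets (20393 with 1 gene, 691 with several), with symbols updated through Entrez identifiers against RefSeq GRCm38.p6 (20364 matched). The 51 array controls with no mouse gene were left out, and 22639 probe sets were fitted with limma 3.58.1 in R 4.3.3 (lmFit, eBayes, no covariates, Benjamini-Hochberg adjustment, threshold 0.05). With 3 arrays a group the smallest exact permutation p is 0.1, and no such test was run. The script was tested on simulated data. Tables and plots used Python 3.11.15, pandas 2.3.3 and matplotlib 3.10.9.

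The members, lists and tests were chosen with earlier results of these data known. Of 149 entries on the further pathway, marker and check lists 131 were measured. Named from each pathway list were up to 4 genes past the threshold with the largest change, 2 in each direction first; every other gene named from these and the marker lists was picked after its values were seen. Alternatives were other scalings, filters, fits and arrays left out. The replicate numbers were not taken to pair the arrays: deviations of same-numbered arrays from their group means correlated at -0.096, -0.022 and 0.05.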

Additional observations from a re-analysis of the deposited data

How the results depend on the processing

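Scaling to the bacterial controls gave 12971 probe sets higher and 949 lower against 4091 and 3923 as deposited, and 14 of the listed iron probe sets higher against 7. Under it Hfe 1422645_at turned to 0.12 and Hnf4a to 0.037, as did the markers Apoa1 (0.18) and Stab2 (0.03); no other listed probe set or pathway gene named by the rule changed sign after passing, in any alternative run. In the other alternatives over probe sets, the listed iron genes had 5 to 7 probe sets higher and 6 to 9 lower, and 6 to 7 and 7 to 9 with 1 array left out; fewer were fitted without the probe sets marked for cross-hybridisation or the dimmest 40%. Of 359 values of the listed probe sets under the alternatives, 14 lost a call in the same direction, for Hfe, Bmp6 and Cp 1417494_a_at. The Hamp differences ran from 4.47 to 5.28 and from 3.20 to 3.95 outside that scaling and without averaging probe sets.

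With the replicate number as a block (replicate block), 6 listed probe sets were higher and 7 lower, and 3468 and 3294 of all; Hfe 1422645_at and Bmp6 did not pass, and the STAT3 branch had 2 genes higher. Only 1 of 6 arrays correlated best with the array of its own number. The STAT3 branch had 2 genes higher after quantile normalization again and 1 after cyclic loess, and 4 promoter factors were lower under each. With eBayes trend and robust options 2 haem clearance genes were higher and Cd163 did not pass. After scaling to the bacterial controls, iron import and storage had 5 higher and 4 lower, haem clearance 4 and 4, and mitochondrial iron 13 and 2. Jak1 did not pass after cyclic loess. These causes were not tested. Dim readings, such as wild-type Hamp, Bmp6 and several Tfrc probe sets, limit what can be said of their size.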
